A study of Mus musculus with 2 samples.

Results

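The 6 genes described here encode 5 proteins of the sarcomere and 1 of the triad of skeletal muscle, and were picked by name because a peak of the YTHDF2 immunoprecipitation lay over each of them. They are Mylpf, Neb, Tnnt1, Tnni2, Ttn and Trdn, 6 of the 3284 protein-coding genes with a peak over the gene body. Of these, 5 were among the 1285 genes in the authors' deposited gene table, and Ttn was not. Over the 6 gene bodies lay 10 of the 9271 deposited peaks.

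The sarcomere, the repeating unit of striated muscle, slides thick filaments of myosin past thin filaments of actin. Troponin on the thin filament makes the sliding depend on calcium, and titin spans the unit as a molecular spring. The calcium comes from the triad, where the transverse tubule meets the sarcoplasmic reticulum. YTHDF2 is a cytoplasmic protein that binds N6-methyladenosine (m6A) in RNA and recruits the machinery that removes poly(A) tails.

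The cells were C2C12, an established mouse myoblast line of wild-type genotype, kept in 2% horse serum for 4 to 5 days until they had fused into myotubes. No other treatment was given. The series holds 1 YTHDF2 RNA immunoprecipitation (RIP) library and 1 input library, each labelled as batch 1. The design names an IgG control, which was not analysed here, and the library protocol after the pulldown is worded for DNA.

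Setting RIP over input asks which stretches stood higher in the pulldown than in the input. With no IgG library analysed, recovery through the antibody cannot be told apart from unspecific recovery. With 1 library of each kind there was no replicate spread and no test was made. Each peak has a RIP pileup, the number of fragments stacked at its summit times 0.9, and an input background in the same scaled unit. Fold enrichment is the pileup plus 1 over the background plus 1. Its 95% interval is an exact Poisson interval of the RIP fragments and covers counting error of the RIP library alone. Depth is unknown, since no file gives a library total, and levels of genes with no peak are not measured. Of 11 myotube markers, 4 had a peak over the gene body (Ttn, Mylpf, Tnnt1 and Tnni2), where 15.0% of protein-coding genes did. For each of the myoblast, cardiac and other-lineage lists it was 0 of 5. Those 4 markers are among the genes described here, which were picked because a peak lay over them, and no other myotube marker had one. The contrast with the other lists is therefore not independent of that choice. A gene without a peak has no level in these files, so the marker counts do not check the cell type.

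Having a peak was the ground for choosing the genes, so the counts that follow describe them. In the gene table stood 5 of the 6, where 5.76% of 21911 protein-coding genes did. Of the 6, Mylpf alone stayed in the gene table at a q-value of 1e-05 or less, where 4.37% of protein-coding genes did, and at a fold enrichment of 4 or more, where 2.14% did. All 6 had a peak over the gene body, where 15.0% of protein-coding genes did. Mylpf, Neb, Tnnt1 and Tnni2 had 1 peak each, and Ttn and Trdn had 3 each.

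The 5 peaks in the gene table and the 5 outside it differed in place and in fold. Those in the table, 1 for each gene other than Ttn, had fold enrichments from 1.76 to 4.22 over input backgrounds from 4 to 40. Those outside it, all in Ttn and Trdn, had fold enrichments from 4.97 to 8.26 over backgrounds from 1.08 to 5. The summit lay in an exon for 4 of the 5 peaks in the table and for 0 of the 5 outside it. The same contrast held over the whole list. The summit was in an exon for 91.4% of 1525 gene-table peaks and, by definition, for 0% of 6318 peaks wholly in introns, with median folds of 3.25 and 4.63 over median backgrounds of 15 and 4.09. For the peaks of the 6 genes, pileup minus background overlapped between both kinds, from 12.2 to 31.1 in the table and from 14.2 to 23.8 outside it.

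**Figure D1:**
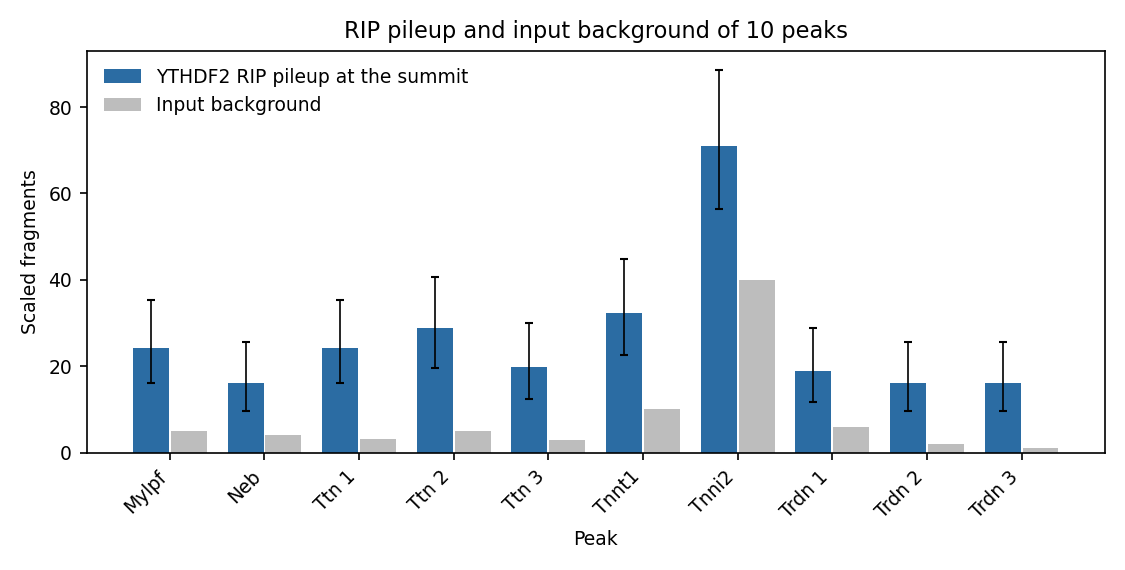
Bars give the YTHDF2 RIP pileup (blue, left) and the input background (grey, right) in scaled fragments for the 10 peaks over the 6 genes, with exact 95% Poisson whiskers on the RIP bars. Tnni2 stands at 71.1 over 40, and the RIP pileups of the other peaks lie between 16.2 and 32.4.

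Mylpf encodes the regulatory light chain of fast skeletal myosin, which wraps the neck of the myosin heavy chain in the thick filament. Its peak lay at chr7:127212877-127213063 (mm10, plus strand), over exon 2 of 7 of the principal transcript and the intron after it. Here and below, the strand given is that of the gene and was not measured for the peak. The authors marked the peak as touching a start codon, coding sequence and 5′ UTR. In GENCODE M21 that start codon belongs to 2 alternative transcripts, Mylpf-202 and Mylpf-206, and lies 12 bp downstream of the summit. In the principal transcript, Mylpf-201, the same exon is coding throughout, and the start codon is at -1145 bp from the summit, introns included.

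The stretch from the alternative start codon to the end of the peak shows how little of it is exon, with coding bases in capitals and intron in lower case.
Mylpf: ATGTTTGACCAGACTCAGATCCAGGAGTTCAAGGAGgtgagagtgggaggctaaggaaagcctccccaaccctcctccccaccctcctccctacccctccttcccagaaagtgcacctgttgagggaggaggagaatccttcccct

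Of the 187 bp of the Mylpf peak, 77 were exonic and 110 intronic. The RIP pileup was 24.3, from 27 fragments, against an input background of 5, and the fold enrichment was 4.22 (95% interval 2.84 to 6.06). This was the highest fold among the 5 peaks in the gene table. With counting error of both libraries, the pileup over the background was 4.86 (exact 95% interval 1.84 to 16.2).

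Neb encodes nebulin, a giant protein that runs along the thin filament and stabilises its length. Its gene body of 241828 bp and 157 exons held 1 peak, at chr2:52185823-52186078 (mm10, minus strand). The authors marked it as coding sequence. It covered the 3′ end of exon 123 of the principal transcript Neb-202, and 67 of its 256 bp were exonic. The summit lay 50 bp inside the next intron, which is 2175 bp long.

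The whole peak is shown, since its summit and its bases are mostly outside the exon by which it was classed. Coding bases are in capitals.
Neb: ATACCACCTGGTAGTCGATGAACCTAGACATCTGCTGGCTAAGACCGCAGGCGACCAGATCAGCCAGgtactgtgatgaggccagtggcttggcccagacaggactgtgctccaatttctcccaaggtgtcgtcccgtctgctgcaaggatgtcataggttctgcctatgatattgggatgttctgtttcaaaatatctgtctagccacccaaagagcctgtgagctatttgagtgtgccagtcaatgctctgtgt

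Neb had a RIP pileup of 16.2, from 18 fragments, against an input background of 4. The fold enrichment was 3.44 (2.12 to 5.32), and the pileup over the background was 4.05 (1.33 to 16.5) with counting error of both libraries. Together with the intron peaks of Trdn it had the fewest RIP fragments of the 10 peaks.

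Tnnt1 encodes slow skeletal troponin T, which anchors the troponin complex to tropomyosin. Its peak lay at chr7:4504653-4504838 (mm10, minus strand), over the last of the 14 exons of the principal transcript Tnnt1-201. The authors marked it as stop codon, coding sequence and 3′ UTR. It ran from 38 bp inside the last intron, through 46 coding bases that include the stop codon, into the 3′ UTR. The summit was in the 3′ UTR, 29 bp past the first base of the stop codon. The bases from the upstream edge of the peak to the stop codon are given with coding bases in capitals.
Tnnt1: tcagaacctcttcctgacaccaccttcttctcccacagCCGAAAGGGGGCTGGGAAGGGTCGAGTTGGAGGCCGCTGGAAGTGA

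The RIP pileup of Tnnt1 was 32.4, from 36 fragments, against an input background of 10. The fold enrichment was 3.04 (2.15 to 4.17), and the pileup over the background was 3.24 (1.58 to 7.32) with counting error of both libraries.

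Tnni2 encodes fast skeletal troponin I, the inhibitory subunit that holds back actin and myosin until calcium arrives. Its peak, at chr7:142443920-142444354 (mm10, plus strand), was 435 bp long and lay over the last 2 exons of the 8 in the principal transcript Tnni2-201, with the intron of 132 bp between them. The authors gave it the same 3 elements as Tnnt1, stop codon, coding sequence and 3′ UTR. The summit lay in coding sequence, 31 bp before the first base of the stop codon. The coding part of the last exon, to the stop codon, holds the summit.
Tnni2: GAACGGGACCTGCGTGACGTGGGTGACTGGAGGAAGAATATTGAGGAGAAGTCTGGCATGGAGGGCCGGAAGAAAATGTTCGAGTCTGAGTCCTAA

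The Tnni2 peak had the most RIP fragments and the lowest fold of the 10. Its RIP pileup was 71.1, from 79 fragments, against an input background of 40. The fold enrichment was 1.76 (1.40 to 2.19), and the pileup over the background was 1.78 (1.20 to 2.67) with counting error of both libraries. Its pileup was above that of 91.5% of all peaks, its background above that of 96.0%, and its fold above that of 1.13%. The fold interval of Tnni2 ended below the lower bounds of Mylpf, at 2.84, of the Ttn peaks, at 3.45 or more, and of the intron peaks of Trdn, at 3.53 or more. It overlapped those of Neb, Tnnt1 and the 5′ peak of Trdn. That separation holds for counting error of the RIP library alone. With that of both libraries, the interval of Tnni2, 1.20 to 2.67, overlapped those of Mylpf, from 1.84, of the second Ttn peak, from 2.23, and of the first intron peak of Trdn, from 1.94.

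**Figure D2:**
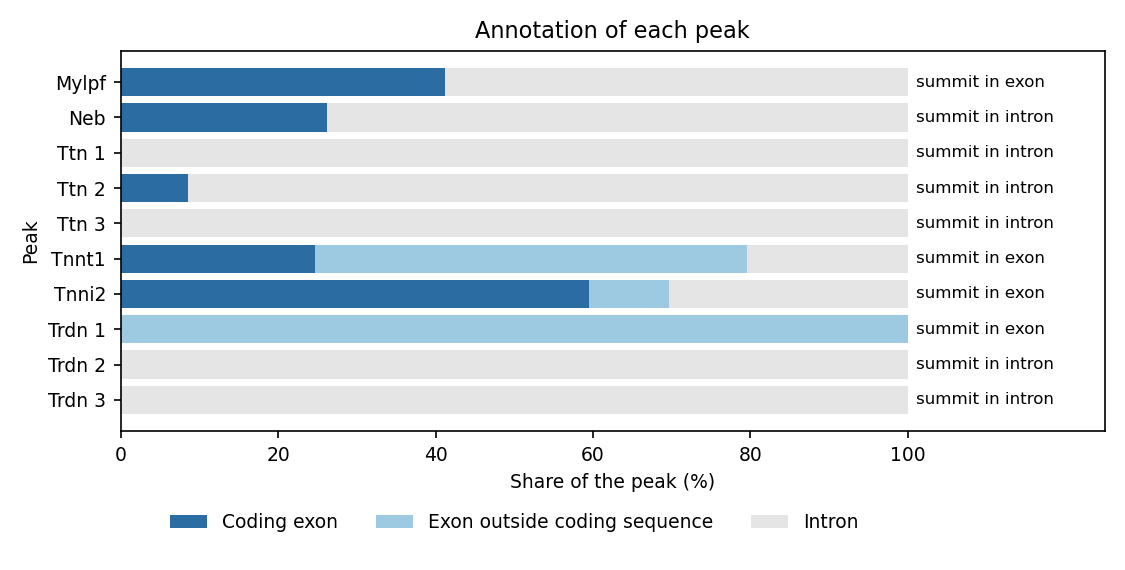
Each row is 1 of the 10 peaks, and the bar divides its length (%) into coding exon (dark blue), exon outside coding sequence (light blue) and intron (grey), with the place of the summit beside it. The Neb peak was 26.2% exonic and the Mylpf peak 41.2%, although both stand in the gene table.

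The share of exon set Mylpf and Neb apart from most peaks of the gene table. Across 1525 such peaks that were matched to GENCODE M21, the median peak was 100% exonic, and 11.3% were under 50% exonic. The Neb peak was 26.2% exonic, the Mylpf peak 41.2%, the Tnni2 peak 69.7% and the Tnnt1 peak 79.6%. The Neb summit was among the 8.59% of gene-table peaks with a summit outside the exons of their gene.

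Ttn encodes titin, which reaches from the Z-disc to the M-band and recoils through a segment rich in proline, glutamate, valine and lysine, called PEVK after their letters. Its gene body of 278568 bp held 3 peaks within 3414 bp, all outside the gene table. In 5′ to 3′ order they lay at chr2:76825174-76825386, chr2:76824054-76824240 and chr2:76821973-76822415 (mm10, minus strand). The first and second were in the 3510 bp intron between exons 164 and 165 of the principal transcript Ttn-204, and the most 3′ one in the next intron, of 1266 bp. The second touched an exon by 16 bp, exon 197 of the alternative transcript Ttn-203.

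The exons around these peaks code for the spring segment. In Ttn-203, the 53 coding exons within 10000 bp of the peaks held 1716 whole codons, of which 61.9% encoded proline, glutamate, valine or lysine, against 35.1% of the 35213 codons of the transcript. The first peak, of highest fold, and the second, which touches an exon, are given with coding bases in capitals.
Ttn peak 1: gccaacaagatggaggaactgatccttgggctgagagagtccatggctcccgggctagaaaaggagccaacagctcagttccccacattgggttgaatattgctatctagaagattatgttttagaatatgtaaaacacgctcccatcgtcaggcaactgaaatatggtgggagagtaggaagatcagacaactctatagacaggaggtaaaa
Ttn peak 2: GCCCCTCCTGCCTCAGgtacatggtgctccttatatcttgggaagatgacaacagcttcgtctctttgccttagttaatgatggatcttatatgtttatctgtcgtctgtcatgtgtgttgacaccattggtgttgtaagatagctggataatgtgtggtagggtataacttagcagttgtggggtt

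The first Ttn peak had a RIP pileup of 24.3, from 27 fragments, against an input background of 3.07, a fold enrichment of 6.22 (4.18 to 8.93). The second had a pileup of 28.8, from 32 fragments, against a background of 5, a fold of 4.97 (3.45 to 6.94). The most 3′ of them had a pileup of 19.8, from 22 fragments, against a background of 2.86, a fold of 5.38 (3.47 to 8.02). The 3 intervals overlapped, so the order among them was not resolved.

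In 5′ to 3′ order, the input backgrounds of the Ttn peaks were above those of 37.7%, 56.3% and 30.4% of peaks outside the gene table. MACS takes the largest of several local estimates as background, and for the outer peaks this was a mean over 10000 bp, equal to 165 and 154 input fragments. The input at these summits was therefore at most 3 and 2 fragments, against 27 and 22 RIP fragments.

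From the outer edge of the first to that of the last, the Ttn peaks spanned 1.23% of the gene body. Across the 307 protein-coding genes with exactly 3 peaks over the body, the median span was 27783 bp, 14 genes (Ttn included) had a span of at most 3414 bp, and the median share of the gene body was 40.6%. The share in Ttn was the smallest of the 307. These spans use the peaks that chose the gene and are given as a description.

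**Figure D3:**
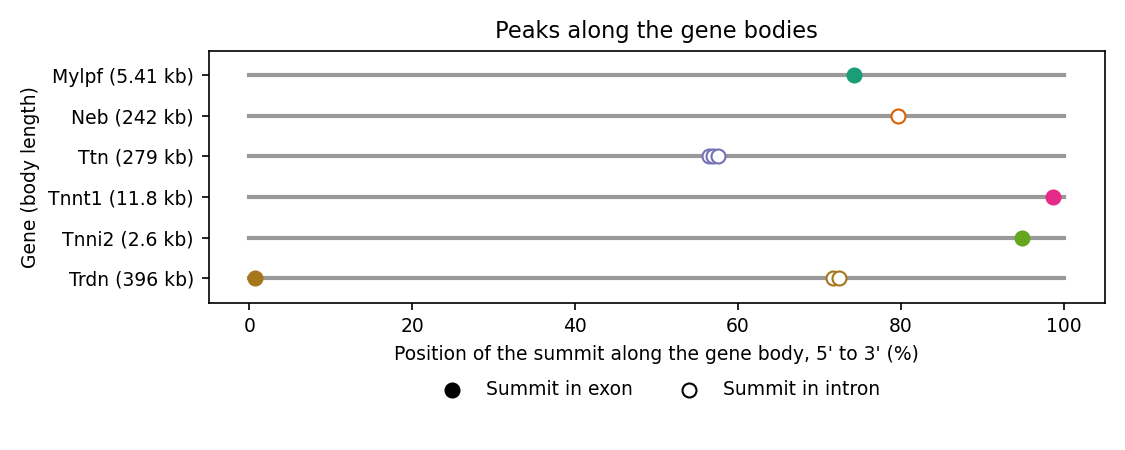
Each line is a gene body scaled to 100% from 5′ to 3′, with its length, and each circle is a peak summit, filled in exons and open in introns. The Ttn summits lie between 56.4% and 57.5% of the gene, and the Tnnt1 and Tnni2 summits near the 3′ end, at 98.7% and 94.9%.

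Trdn encodes triadin, a membrane protein of the junctional sarcoplasmic reticulum that links the calcium release channel to calsequestrin. Its gene body of 396156 bp held 1 peak at the 5′ end and 2 in an intron 281001 bp further on. The 5′ peak, at chr10:33083366-33083704 (mm10, plus strand), was the one in the gene table, marked as 5′ UTR. Its summit lay 184 bp before the start codon. Of its 339 bp, 222 were in exon 1 of the principal transcript Trdn-201, and all 339 were in the longer exon 1 of Trdn-208. Both intron peaks, at chr10:33364443-33364636 and chr10:33367005-33367201, lay in the 34358 bp intron between exons 21 and 22 of Trdn-201, with summits 2584 bp apart and 519 and 3103 bp from the nearest exon.

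The intron peaks of Trdn are shown because they carried the highest folds of the gene. The first holds a run of CA repeats within its 67 repeat-masked bases. Both are intron throughout and have no capitals.
Trdn peak 2: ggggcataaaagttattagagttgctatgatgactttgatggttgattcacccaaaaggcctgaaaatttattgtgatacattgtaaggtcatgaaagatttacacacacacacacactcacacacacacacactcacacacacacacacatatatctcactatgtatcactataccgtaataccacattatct
Trdn peak 3: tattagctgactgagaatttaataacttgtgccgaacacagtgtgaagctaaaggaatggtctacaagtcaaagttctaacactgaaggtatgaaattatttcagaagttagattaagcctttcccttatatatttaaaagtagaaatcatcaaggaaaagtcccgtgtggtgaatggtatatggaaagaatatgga

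The 5′ peak of Trdn had a RIP pileup of 18.9, from 21 fragments, against an input background of 6, a fold enrichment of 2.84 (1.81 to 4.27). The first intron peak had a pileup of 16.2, from 18 fragments, against a background of 2, a fold of 5.73 (3.53 to 8.87). The second had the same pileup against a background of 1.08, the lowest of the list, a fold of 8.26 (5.09 to 12.8). For counting error of the RIP library alone, the interval of the second intron peak lay above that of the 5′ peak, and those of the intron peaks overlapped. With that of both libraries, the pileup over the background was 3.15 (1.23 to 9.54) for the 5′ peak and 8.10 (1.94 to 72.0) for the first intron peak, which overlap. The second intron peak has no such interval, since its background is not a count at the summit.

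The fold of the second intron peak depends on how so low a background is handled. Without 1 added to both terms it was 15.0. Its summit had at most 1 input fragment. The 5′ peak was close to the caller's limit, with a −log10 q-value of 1.99, where the lowest of the 9271 peaks was 1.43. Candidate peaks below that limit were not analysed here.

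A peak of given background needs a minimum pileup to be called, so folds were read beside those of all peaks whose background was within 10%. All 5 peaks of the gene table were below the median of such peaks, which include intron peaks. Among gene-table peaks of any background, the fold of Mylpf was above 69.8%, Neb above 55.1%, Tnnt1 above 44.0%, Trdn above 38.2% and Tnni2 above 4.87%. Tnni2, at 1.76, was set against a median of 2.40 and a lowest of 1.65 over 120 peaks, and Trdn at its 5′ end, at 2.84, against 4.23 over 635. Neb, at 3.44, was set against 4.78 over 791, Tnnt1, at 3.04, against 3.52 over 598, and Mylpf, at 4.22, against 4.48 over 724.

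All 5 peaks outside the gene table were above that median. The Ttn peaks, at 6.22, 4.97 and 5.38, were set against 5.20, 4.48 and 5.20, and the intron peaks of Trdn, at 5.73 and 8.26, against 5.43 and 6.53. The lower bound of every interval was below the median at like background, so a place above it was not resolved at this depth. Of the peaks below it, the upper bound for Tnni2, 2.19, did not reach its median of 2.40, and the upper bounds for the other 4 reached theirs. With counting error of both libraries, the upper bound for Tnni2 was 2.67, for pileup over background without 1 added. It passed 2.40, which is a median of folds with 1 added, so the measures differ. No place below the median was taken as resolved once input counting was included.

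**Figure D4:**
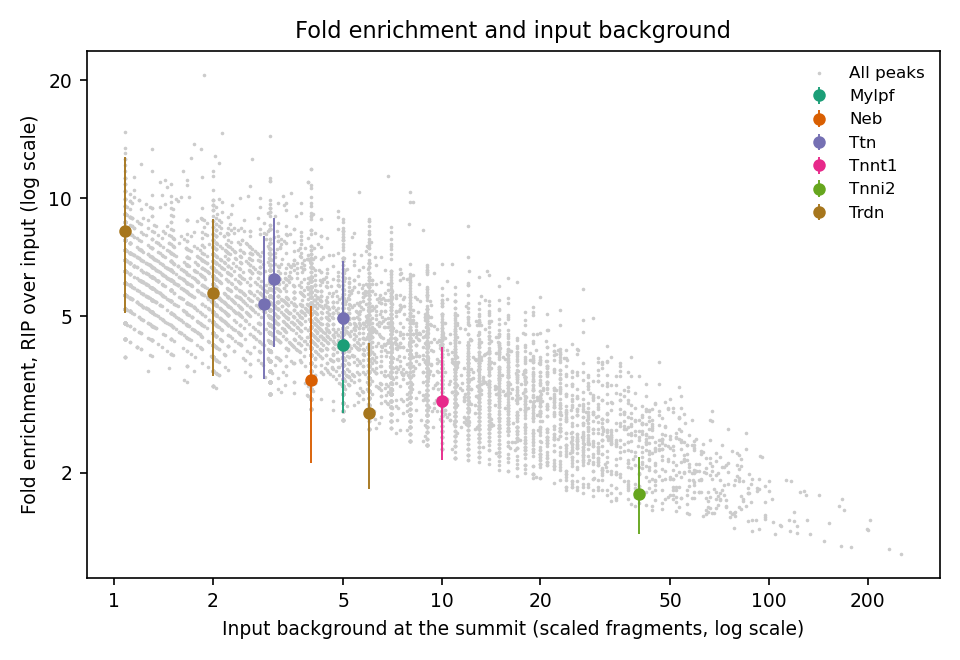
Each grey point is 1 of the 9271 peaks, by input background at the summit in scaled fragments and fold enrichment of RIP over input, both on log scales, and coloured points are the 10 peaks of the 6 genes with exact 95% Poisson intervals. Tnni2 lies low at a background of 40, and the second intron peak of Trdn lies at the left edge with 8.26.

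Sequence features were not used to choose the genes. GGAC, the core of the m6A consensus, was searched on the strand of the gene in 201 bases centred on each summit, and was in 3 of the 10 windows, those of Neb, Tnnt1 and Tnni2. All 3 were among the 5 peaks of the gene table, where 46.1% of 1525 peaks had a match. None of the 5 windows outside it, in Ttn and Trdn, had one, where 36.9% of 6318 intron peaks did. On the opposite strand 7 of the 10 windows had a match, against 45.7% of gene-table peaks and 42.4% of intron peaks. A match on the opposite strand reads GTCC on the strand of the gene, which cannot overlap GGAC. A match shows the letters and not methylation.

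The sites lay upstream of the summit in the direction of transcription. In Neb the site was intronic, at -15 bp from the summit, and reads GGACT. In Tnni2, coding sites lay at -57 and -243 bp, and the nearer one is in the sequence of the last exon given above. The farther one lies outside the window of 100 bases to each side. In Tnnt1 the site was in the 3′ UTR, at -18 bp, and is shown with the motif in capitals.
Tnnt1 site: gagactgccaGGACatgacctgct

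The peaks of Mylpf, Neb, Tnnt1 and Tnni2, all in the gene table, were richer in G and C than those of Ttn and Trdn. The 5′ peak of Trdn, also in the gene table, stood at 44.2%. Mylpf stood at 58.3%, Tnnt1 at 56.5%, Tnni2 at 56.3% and Neb at 51.2%, where the median of gene-table peaks was 44.8% (quartiles 38.7 and 53.0). The Ttn peaks stood between 43.9% and 45.5% and the intron peaks of Trdn at 37.1% and 34.0%, where the median of intron peaks was 43.3% (39.4 and 47.2). A blastn search in its default mode for close copies, at an expect value of at most 1e-05, found 0 other places on the 21 chromosomes for any of the 10 peaks. That mode starts no match in simple repeats, so the search could not test the CA repeats of the first Trdn intron peak. It does not show that repeat-masked bases are unique.

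Of the 3 long genes, Ttn lay above and Trdn and Neb below the peak density of all protein-coding gene bodies together, 0.849 per 100 kb. Ttn had 1.08 peaks per 100 kb, Trdn 0.757 and Neb 0.414. Of the 997 protein-coding genes of at least 200 kb, 36.4% had a peak over the body. In the short genes the same single peak gave 8.47 per 100 kb in Tnnt1, 18.5 in Mylpf and 38.4 in Tnni2.

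Most other sarcomere genes had no peak. Of a list of 60 sarcomere genes, 51 had none over the gene body, and 9 did, 5 of them chosen for it. The 9 were 15% of the list, against 15.0% of all protein-coding genes. In the gene table stood 6 of the 60, or 10%, against 5.76% of all. Leaving out the 5 chosen genes lowers both shares by construction. Of the other 55 genes, 4 had a peak over the gene body, or 7.27%. In the gene table stood 2 of the 55, or 3.64%, against 5.76% of all. These were Csrp3, a Z-disc LIM protein, at 6.96 (4.11 to 11.2) over its stop codon, and Capzb, which caps actin filaments, at 2.42 (1.85 to 3.11) in its 5′ UTR. Intron peaks alone lay over Smyd1, a methyltransferase needed for myofibril assembly, at 8.61 (5.91 to 12.2), and Pdlim5, a Z-disc adaptor, at 7.68 (5.36 to 10.7). With Mylpf, Neb, Tnnt1 and Tnni2 included, the median of the highest fold per gene was 3.24 for the 6 in the table, against 3.43 over all protein-coding genes in it.

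Of a list of 29 triad and calcium-handling genes, 7 had a peak over the gene body, or 24.1%, against 15.0% of all protein-coding genes, and 2 stood in the gene table, or 6.90%, against 5.76%. Without Trdn, chosen for its peaks, these were 6 of 28, or 21.4%, and 1 of 28, or 3.57%. That 1 gene was Asph, whose products include the calsequestrin-binding protein junctin, at 4.03 (3.13 to 5.10) over its stop codon. Outside the table, Cacna2d1, a calcium channel subunit, had 26 peaks and a highest fold of 7.04 (5.04 to 9.59). The membrane repair protein gene Dysf stood at 5.83 (3.44 to 9.35), the release channel gene Ryr3 at 4.38 (2.39 to 7.52) and Srl, for a calcium-binding protein of the reticulum, at 3.50 (2.03 to 5.70), with 1 peak each. Atp2a2 had 1 intron peak, at 2.93 (2.32 to 3.65). By highest fold per gene, this was the lowest of the triad genes with a peak. Long genes made up more of the triad list, with 6 of 29 at 200 kb or more, of which 5 had a peak, against 3 of 60 sarcomere genes, of which 2 had one. The 2 long sarcomere genes with a peak were Ttn and Neb, and 1 of the 5 triad genes was Trdn. Each of them was chosen for having a peak, so these counts are not independent of that choice. Over all protein-coding genes of that length, 36.4% had a peak. Whether length accounts for the triad share was not tested. The median highest fold over gene bodies was 4.38 for the 7 triad genes with a peak and 4.22 for the 9 sarcomere genes. Both include the chosen genes, and the sarcomere median is the fold of Mylpf itself. The same median was 5.13 for all protein-coding genes with a peak.

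The authors' deposited table of term tests, made with Fisher's exact test, set these genes in small groups. The troponin complex had 2 of 7 annotated genes with a peak, Tnnt1 and Tnni2, against an expected 0.43, with an FDR of 0.289 by the authors' deposited table. In the same authors' deposited table the striated muscle thin filament had 3 of 17, with Neb added, against an expected 1.04, at an FDR of 0.326. Sarcomere, by the authors' deposited table, had 10 of 123 against an expected 7.56, at an FDR of 0.501. Trdn was the 1 gene of 52 for sarcoplasmic reticulum in the authors' deposited table, against an expected 3.19, at an FDR of 0.995. Neb was also among the 16 of 81 genes for regulation of actin filament length in the authors' deposited table, against an expected 4.97, at an FDR of 0.00119. Mylpf and Neb were among the 45 of 453 genes for muscle structure development in the authors' deposited table, against an expected 27.8, at an FDR of 0.0208. Mylpf was among the 26 of 205 genes for the pathway of regulation of actin cytoskeleton in the authors' deposited table, against an expected 11.9, at an FDR of 0.0138.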

How the data were processed

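Alignment was to mm10 with Bowtie and the peak caller was MACS, per the series' design text; their settings are not given. Per the file headers, the deposited peak list gives a pileup signal, a fold enrichment (a linear ratio) and, as −log10, a p-value and a q-value per peak, each computed by the authors. The deposited gene table adds symbols and elements, and another deposited file holds a count and a percent for each element. Term tables deposited by the authors give a count of genes, an expected number, a p-value and an FDR per term, which were copied.

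All pileup values were multiples of 0.9 (tolerance 1e-06), read as RIP fragments scaled by the caller. The input background was computed from pileup and fold with 1 added to each term. A Poisson tail with it gave the deposited p-value within 0.01 for 100% of peaks. In 59.9% of peaks it was whole (tolerance 0.01). There it was read as input fragments at the summit, and an exact conditional interval of the ratio covers both counts, a step added after seeing the data. Intervals treat fragments as independent molecules, although PCR can copy them.

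Gene bodies and exons were those of GENCODE M21 on GRCm38, the same build, and overlap was at least 1 bp. Sequences came from the RefSeq GRCm38.p6 genome, read with pysam 0.24.0, and blastn 2.17.0 (default megablast) searched that genome, with matches counted on its chromosomes and not on its scaffolds. Intervals used scipy 1.17.1 and were tested on simulated data. Of 1541 peaks in the gene table, 1525 were matched to GENCODE by symbol. The genes and both lists were chosen with earlier results of these data known. Named genes were the 6 members and, from the lists, the other genes in the gene table or among the 8 of highest fold. Atp2a2 was added to complete the triad genes with a peak. Alternatives changed the peak threshold, gene assignment, added constant, motif, strand and annotation.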

Additional observations from a re-analysis of the deposited data

How the results depend on the processing

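Of 35 alternatives, 21 left a value within its interval or, for counts and values with no interval, within 1.5 times, and 14 did not. Filters that remove peaks lower counts by construction. Members in the gene table numbered 1, Mylpf, in place of 5 at a q-value of 1e-05 or less and also at a fold enrichment of 4 or more. Peaks over the 6 gene bodies numbered 6 in place of 10 under either filter, and 6 when they had to touch an exon. RefSeq gene bodies, chosen after seeing the data, gave the same 10. The highest fold of Trdn, 8.26, was 15.0 without 1 added, and its input background, 1.08 at that peak, was 2 as the median of its 3 peaks. Sarcomere genes in the table, 6 in the report, numbered 3 at the q-value filter and 2 at the fold filter. Triad genes, 2 in the report, numbered 1 under either filter and 7 over gene bodies. Windows with the motif, 3 in the report, numbered 1 for GGACT and 7 on the opposite strand; the cause was not tested. No paired analysis was possible because each group has 1 library. Depth limits all folds here. Those of the 10 peaks over the 6 gene bodies rest on 18 to 79 RIP fragments and at most 40 input fragments at a summit. Among the other named genes, the fold of Ryr3 rests on 11 RIP fragments, Srl on 14, and Csrp3 and Dysf on 15 each.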

Other observations

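A peak of higher fold than any in the 6 gene bodies lay 4513 bp beyond the 3′ end of Neb, at chr2:52131898-52132134 (mm10), outside every annotated gene. It had 23 RIP fragments against an input background of 1.08, and a fold enrichment of 10.4 (95% interval 6.78 to 15.4). The next protein-coding gene on its other side, Rif1, lay 9515 bp away. It was singled out after its value was seen, and to which transcript it belongs was not tested.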
